A study of Mus musculus with 24 samples.

Results

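The comparison described here is C57BL/6J mouse lung 72 h after intratracheal bleomycin at 1.5 U per kg against C57BL/6J lung 72 h after saline. It uses 4 of the 24 arrays of the series: 2 arrays titled C57 bleo 72 h, and 2 control arrays chosen from the 4 saline arrays of 72 h because their H2-Ea intensity was under 500. H2-Ea encodes an MHC class II chain that BALB/c mice make and C57BL/6J mice, which carry a deletion in the gene, do not. Both control arrays are titled BALB saline 72 h, so the strain in the title was set aside and the treatment in the title was kept. The free-text description of these arrays also speaks of bleomycin, against their title, while that of the arrays titled C57 saline 72 h speaks of saline. Counts and the main genes are therefore given by title too, that is, against the arrays titled C57 saline 72 h.

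The series compares the inbred strains C57BL/6J and BALB/c, which its title presents as a study of sensitivity to pulmonary fibrosis. Lungs were taken 24 h, 72 h and 14 d after bleomycin or saline, with 2 arrays, a and b, in each of 12 groups. The labels do not say that a and b came from separate animals, so p-values measure only the spread between such arrays, which may be technical. Neither the sex nor the age of the mice is given in the labels used here.

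Bleomycin cuts DNA in cells that take it up, and the lung is poorly protected because it holds little of the hydrolase, Blmh, that inactivates the drug. The injury is followed by p53-dependent arrest or death of epithelial and endothelial cells, by the arrival of neutrophils and then monocytes, and in C57BL/6J mice by scarring over the following weeks. At 72 h the lung is in the inflammatory phase, when macrophages gather and epithelial cells begin to repair the alveolar surface, while collagen deposition comes later. These are background statements and not results of these arrays.

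The strain genes of the 4 arrays were read first. H2-Ea had intensities of 51.7 and 37.2 on the bleomycin arrays a and b. On the control arrays it read 89.5 and 48.3. On the arrays titled C57 saline 72 h it read 4821 and 3622. These values chose the control and are given as a description, without a test. A set of 34 genes that separated the strains on the other 20 arrays by at least 1 on the log2 scale was also placed on each array, with 0% set at the BALB/c mean and 100% at the C57BL/6J mean. The control arrays lay at a median of 87.8% and 101.8%, and the bleomycin arrays at 102.7% and 101.4%. The arrays titled C57 saline 72 h lay at 1.43% and 1.94%. Among the arrays that chose the set, those titled C57 reached at least 89.5% and those titled BALB at most 8.07%.

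**Figure D1:**
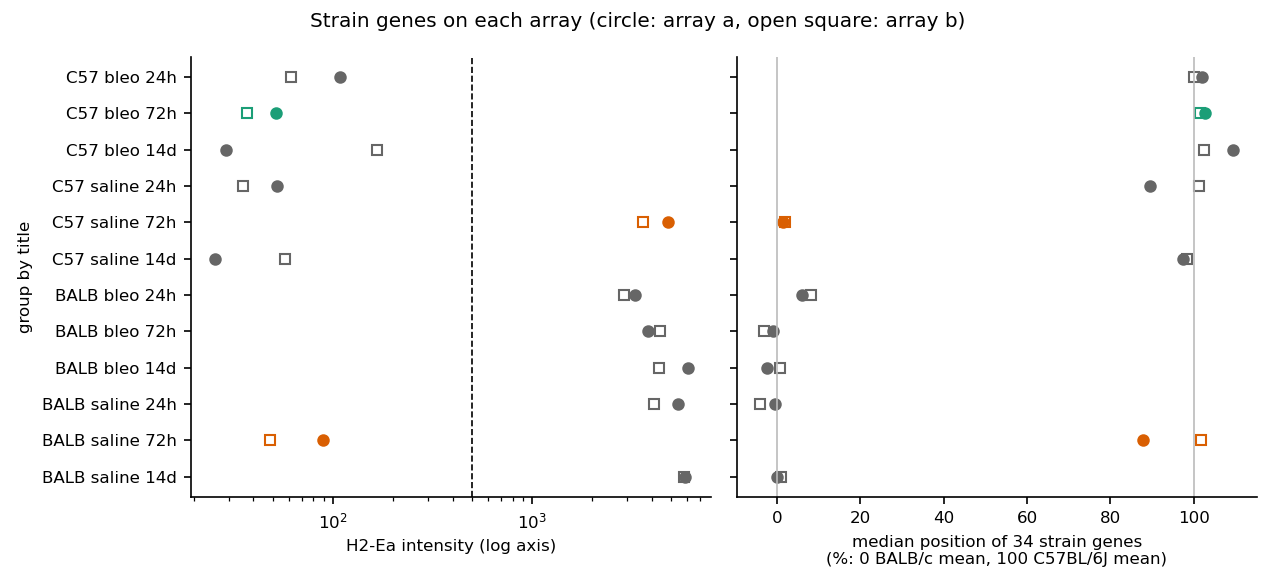
H2-Ea intensity (left, log axis, dashed line at 500) and the median position of 34 strain genes (right, in percent) for each of the 24 arrays, by title group, with array a as a circle and array b as an open square. The orange arrays titled BALB saline 72 h sit with the C57 arrays at 87.8% and 101.8%, those titled C57 saline 72 h sit with the BALB arrays at 1.43% and 1.94%, and the green bleomycin arrays sit at 102.7% and 101.4%.

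The arrays of the series had median intensities of 313.2 to 407.7, and the a and b arrays of the groups compared here correlated at r = 0.975 (bleomycin) and 0.963 (control) over probe sets, which are not independent replicates. Lung markers were present but uneven. The summed intensity of Sftpc, Sftpb, Scgb1a1 and Ager was 14352 to 18237 on the bleomycin arrays, 30402 to 56018 on the control arrays, 14718 to 17238 on the arrays titled C57 saline 72 h and 1245 to 9228 on the C57BL/6J saline 14 d arrays. Marker sums of other tissues were also lower on the bleomycin arrays than on the control arrays. The sum of 9 heart and skeletal muscle markers was 6658 to 9203 against 11395 to 11831. That of 4 mesothelium and fat markers was 3122 to 3450 against 4539 to 4806. For 5 thymus and lymph node markers it was 2265 to 2366 against 3879 to 3959, and for the blood markers Hba-a1 and Alas2 3042 to 3372 against 4830 to 16012. Single markers did not all follow these sums. Msln was higher on both bleomycin arrays, at 1188 and 1133 against 991 and 1004. The means of Cd8a (83.0 against 58.9) and Dntt (257 against 191) were higher too, and those of Nppa and Ckm were nearly equal. The sum of 3 liver markers overlapped, at 265 to 386 against 218 to 436. The part of these tissues in the results below was not tested, and in bulk RNA fewer cells of a type cannot be told apart from less RNA per cell.

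Genes of DNA damage, interferon response, monocyte attraction and epithelial injury rose 72 h after bleomycin. Single genes of airway secretion, alveolar lipid handling and muscle fell. The elastin gene Eln fell on its brightest probe set and rose on a second. Changes are differences of log2(intensity + 92) between group means, with the standard error (SE) of the model, and they understate the change of dim genes. Of 8710 probe sets tested, 226 (2.59%) were called at an adjusted p under 0.05 in limma with Benjamini-Hochberg adjustment, 146 (1.68%) higher and 80 (0.918%) lower after bleomycin. With 1 probe set per gene, 175 of 6464 genes (2.71%) were called, 109 (1.69%) that rose and 66 (1.02%) that fell. By title 576 probe sets (6.61%) were called, 359 (4.12%) higher and 217 (2.49%) lower, and 451 genes (6.98%), 275 (4.25%) that rose and 176 (2.72%) that fell. Over the 6464 genes both bleomycin arrays lay above both control arrays in 26.3% and below both in 24.1%, which is the background for groups that do not overlap. The main count fell to 52 without bleomycin a, 75 without bleomycin b, 55 without control a and 91 without control b. It was 585 against the C57BL/6J saline 14 d arrays, which have the strain in their title and in their H2-Ea level. Each gene described as having risen or fallen passed the test with all 4 arrays in the fit, and the arrays whose removal ended the call are named with it.

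Monocyte chemokines held the largest change among the called genes. These are secreted CC-family proteins that draw monocytes and T cells out of blood. Ccl2, the main ligand of the monocyte receptor CCR2, read 2484 and 1363 on the bleomycin arrays, 19.0 and 17.1 on the control arrays, and 39.2 and 11.3 on the arrays titled C57 saline 72 h. The groups did not overlap, and the rise was 4.14 (SE 0.72, limma adjusted p = 0.00451), against 4.05 by title. Without bleomycin a the adjusted p was 0.0765. Ccl7, a second CCR2 ligand, read 1212 and 701 after bleomycin and 124 and 41.1 after saline, a rise of 2.58 (SE 0.44, limma adjusted p = 0.0042) and of 3.03 by title. Its call was lost without bleomycin a or control b. Ccl8, another chemokine of the same cluster, read 470 and 494 against 43.1 and 72.9 and rose by 1.94 (SE 0.27, limma adjusted p = 0.000939; 2.08 by title), a call that held whichever of the 4 arrays was left out.

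Of the 14 monocyte chemokines and receptors tested, 5 rose and 0 fell, with a list median of 1.03 against 0.007 for all 6464 genes, and 7 rose by title. The other risen members were Ccl12 (1.67), a mouse relative of Ccl2, and Ccl17 (2.18), a ligand of CCR4 on T helper type 2 cells. Ccl17 read 1103 and 1163 after bleomycin and 151 and 208 after saline, and its difference by title was 3.01. Its call was lost whichever array was left out, and that of Ccl12 without bleomycin a or control b. Among 10 CXC chemokines and receptors tested, the interferon-induced Cxcl10 rose, by 1.60 (SE 0.38, limma adjusted p = 0.0303; 1.66 by title), and lost its call whichever array was left out. The neutrophil attractant Cxcl1 read 892 and 755 against 183 and 142, but its difference of 1.85 (SE 0.82) had an adjusted p of 0.284.

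**Figure D2:**
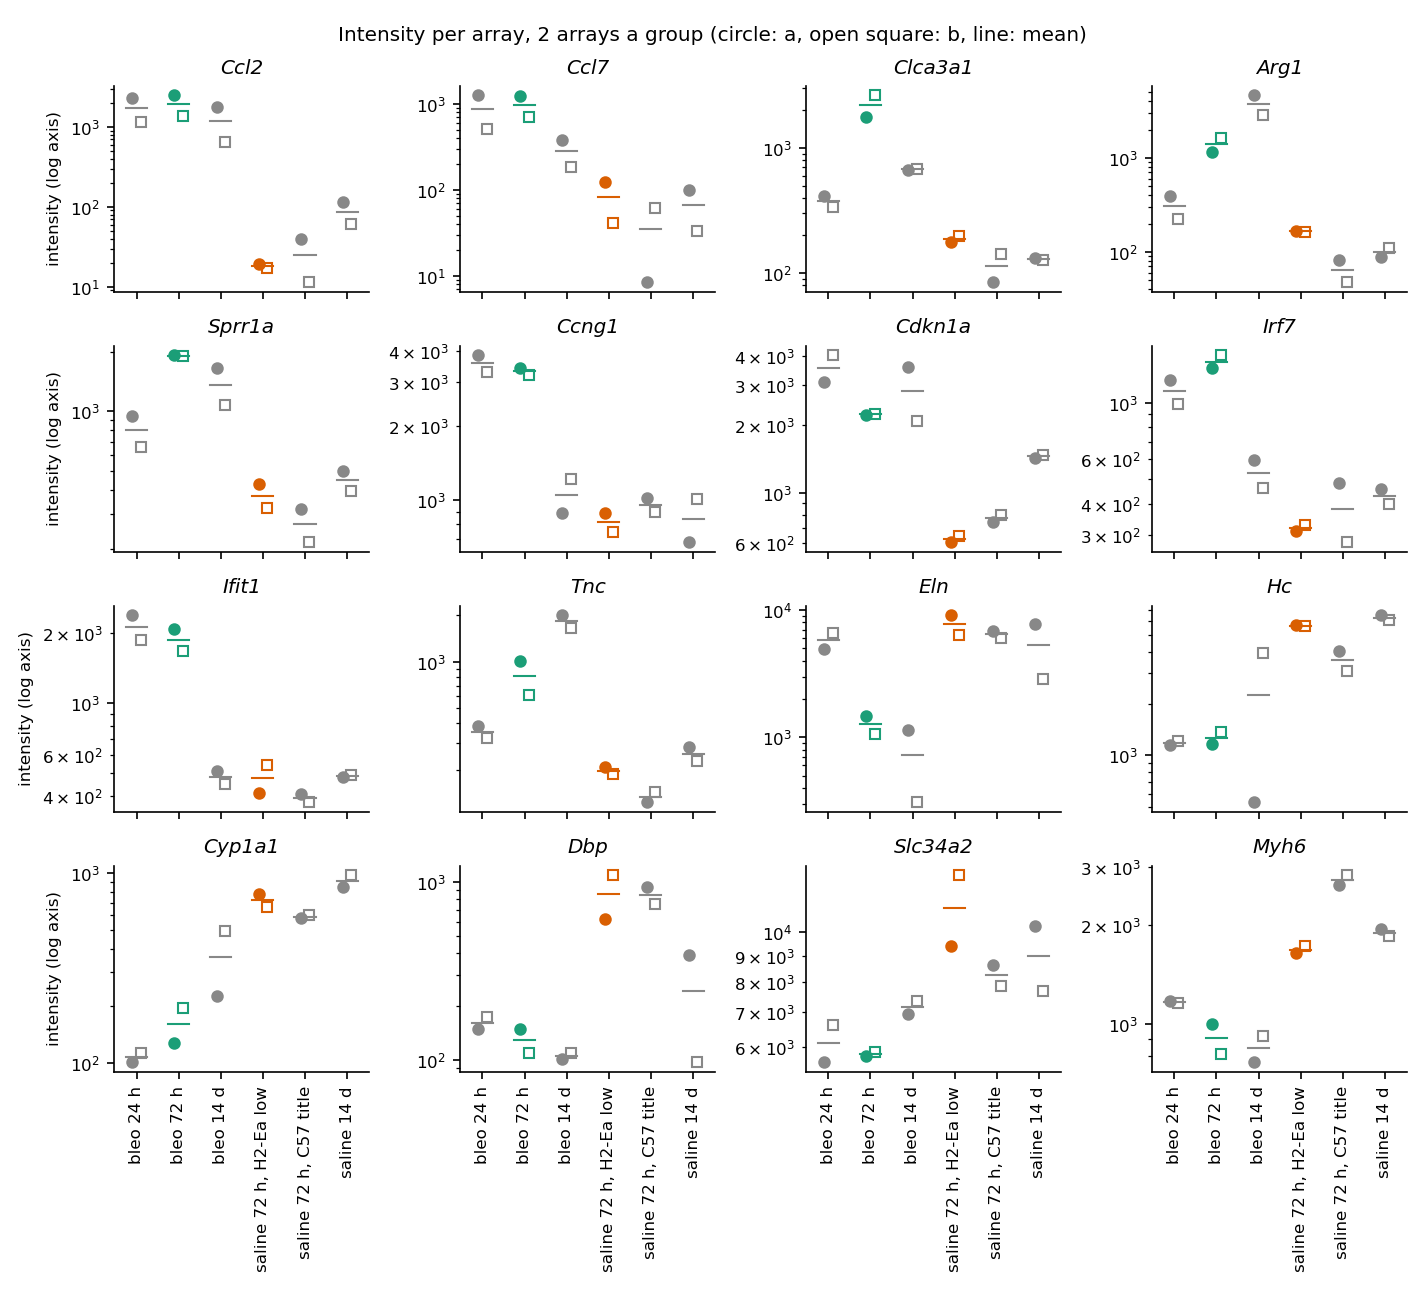
Deposited intensity (log axis) of 16 genes on the C57BL/6J arrays of 3 times after bleomycin and on 3 saline pairs, with array a as a circle, array b as an open square and the group mean as a line. Bleomycin 72 h is green and its control, the saline 72 h pair with low H2-Ea, orange; Ccl2, for example, lies at 2484 and 1363 against 19.0 and 17.1, and Eln at 1480 and 1067 against 9105 and 6398.

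Targets of p53, the factor that DNA breaks activate, rose after bleomycin. Ccng1, a cyclin G that p53 switches on, read 3420 and 3195 after bleomycin and 891 and 742 after saline. The control and bleomycin values lay far apart, and the arrays titled C57 saline 72 h, at 1020 and 900, lay near the control. The rise was 1.91 (SE 0.21, limma adjusted p = 0.00012), against 1.69 by title. Cdkn1a, which encodes the cell cycle inhibitor p21, read 2198 and 2238 against 607 and 649 and rose by 1.68 (SE 0.27, limma adjusted p = 0.0028; 1.42 by title), with a second probe set at 1.76. Cdkn1a was 1426 and 1476 on the C57BL/6J saline 14 d arrays, against which its difference was 0.58 (adjusted p = 0.221), so its call rested on which saline time was the control. The growth arrest gene Gadd45g read 1690 and 1583 against 390 and 436, a rise of 1.78 (SE 0.27, limma adjusted p = 0.0015) and of 2.05 by title.

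In the p53 and DNA damage list 7 of 23 genes tested rose and 0 fell, with a median of 0.631, and 11 rose by title. The other 4 were Mdm2 (1.04), the ubiquitin ligase that limits p53, and Perp (1.08), Phlda3 (1.01) and Ei24 (0.74), which act in cell death and survival downstream of p53. Ccng1, Cdkn1a and Gadd45g stayed called whichever array was left out. Mdm2 and Perp were lost without bleomycin b or control a, and Phlda3 and Ei24 whichever array was left out. Blmh itself read 1899 and 1842 after bleomycin and 2313 and 1648 after saline, an overlap, with a difference of -0.06 (SE 0.15, adjusted p = 0.906).

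Interferon-stimulated genes code for antiviral proteins and are switched on by the factor ISGF3 or by interferon regulatory factors at a DNA element called ISRE. Irf7, a regulatory factor that amplifies type I interferon production, read 1368 and 1537 after bleomycin, 313 and 329 after saline and 483 and 282 on the arrays titled C57 saline 72 h. It rose by 1.90 (SE 0.22, limma adjusted p = 0.000161; 1.73 by title), and its second probe set by 0.88. Ifit1, which binds viral RNA, read 2072 and 1670 against 413 and 544 and rose by 1.78 (SE 0.21, limma adjusted p = 0.000172; 2.02 by title). Usp18, a protease that removes the ubiquitin-like protein ISG15 and dampens interferon signalling, read 2176 and 1842 against 697 and 614 and rose by 1.49 (SE 0.17, limma adjusted p = 0.000161; 1.95 by title). In none of these genes did the groups overlap.

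Of 32 interferon response genes tested, 9 rose and 0 fell, with a median of 0.457, and 13 rose by title. Besides those above these were Ifit3 (1.71), Isg15 (1.28), Rsad2 (1.25), the chemokine Cxcl10 (1.60), the GTPase Mx1 (0.99) and the RNA sensor Ifih1 (0.68). Irf7, Usp18, Ifit1, Ifit3 and Isg15 stayed called whichever array was left out, and the calls of Rsad2, Cxcl10, Mx1 and Ifih1 were lost whichever was left out. Gm9706, a predicted gene among the 15 that rose most, read 1152 and 1082 against 221 and 208, a rise of 1.98 (SE 0.23, limma adjusted p = 0.000165) and of 2.35 by title.

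Promoters of the risen interferon genes, from 250 bases before to 50 after the RefSeq start (assembly GRCm38.p6), were searched for the ISRE core GAAANNGAAA on both strands, because these genes moved together. Of the 9 risen genes 7 had a promoter in the table used, and 6 of the 7 (85.7%) held a match. Among the list's other tested genes 6 of 19 (31.6%) held it, against 197 of 5178 tested genes (3.80%) and 1079 of 27025 genes in all (3.99%). Irf7 had no match in this window, and the match of Ifih1 did not lie before its start. The stretches around the matches of the other 5 follow, 5′ to 3′ on the gene's strand, with the matches in capitals. On the gene's strand a match in the other orientation reads TTTCNNTTTC. A match is a description of letters and does not show that a factor was bound. The list was drawn up as interferon response genes, so the comparison with all genes describes the list and is not a test of these arrays. The shares of risen and other list members rest on 7 and 19 genes, split by the calls on these same arrays. They were not tested against each other.
Ifit1, chr19:34640765-34640833, plus strand: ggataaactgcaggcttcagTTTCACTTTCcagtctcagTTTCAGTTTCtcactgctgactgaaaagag
Isg15, chr4:156200855-156200916, minus strand: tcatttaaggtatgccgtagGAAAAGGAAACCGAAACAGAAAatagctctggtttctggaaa
Ifit3, chr19:34583353-34583436, plus strand: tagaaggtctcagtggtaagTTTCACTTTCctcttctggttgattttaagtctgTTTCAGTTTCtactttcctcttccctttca
Rsad2, chr12:26456543-26456592, minus strand: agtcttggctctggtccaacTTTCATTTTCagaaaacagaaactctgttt
Cxcl10, chr5:92349073-92349122, minus strand: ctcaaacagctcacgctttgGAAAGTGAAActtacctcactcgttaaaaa
Ifit1 and Ifit3 held 2 matches each, the nearer beginning 85 and 122 bases before the start, and Isg15 held 3 overlapping ones. Rsad2 and Cxcl10 held 1 each, 120 and 213 bases before the start.

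Genes listed for injured epithelium rose, and the listed gene Clca3a1 had the smallest adjusted p of the 109 genes that rose. Bulk RNA does not show which cells made these transcripts. Clca3a1, a secreted regulator of calcium-activated chloride channels, read 1771 and 2641 after bleomycin and 177 and 197 after saline, with 84.2 and 142 on the arrays titled C57 saline 72 h. It rose by 3.02 (SE 0.25, limma adjusted p = 6.88e-06), and by 3.48 by title. Sprr1a, a precursor of the cornified envelope made by stressed squamous epithelium, read 1927 and 1904 against 425 and 321 and rose by 2.12 (SE 0.30, limma adjusted p = 0.000939; 2.50 by title). Its neighbour in the same family, Sprr1b, went the other way: it read 458 and 705 after bleomycin, 5313 and 11635 after saline and 2771 and 645 on the saline 14 d arrays. The fall was 3.59 (log2 difference -3.59, SE 0.82, limma adjusted p = 0.0239), with -2.87 by title and -1.13 (adjusted p = 0.449) against saline 14 d. It rests on a single probe set, because another Sprr1b probe set, with a mean intensity of 7.82, was too dim to be tested.

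Of 23 genes in the injured epithelium list 7 rose and 1, Sprr1b, fell, with a median of 0.753, and 9 rose by title. The other risen members were Sfn (1.67), the epithelial 14-3-3 protein, Plaur (1.30), the urokinase receptor, Krt18 (1.01), a keratin of simple epithelium, Lgals3 (1.01), a galectin also abundant in macrophages, and Hbegf (0.83), a growth factor for epithelial cells. Plaur differed by 0.98 by title and by 0.90 from saline 14 d, with limma adjusted p of 0.0775 and 0.102. From saline 14 d Hbegf differed by 0.305 (limma adjusted p = 0.265). Clca3a1 and Sprr1a stayed called whichever array was left out. Sfn was lost without bleomycin a or control a, Plaur and Sprr1b whichever was left out, and Krt18, Lgals3 and Hbegf whichever array was left out except control b.

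**Figure D3:**
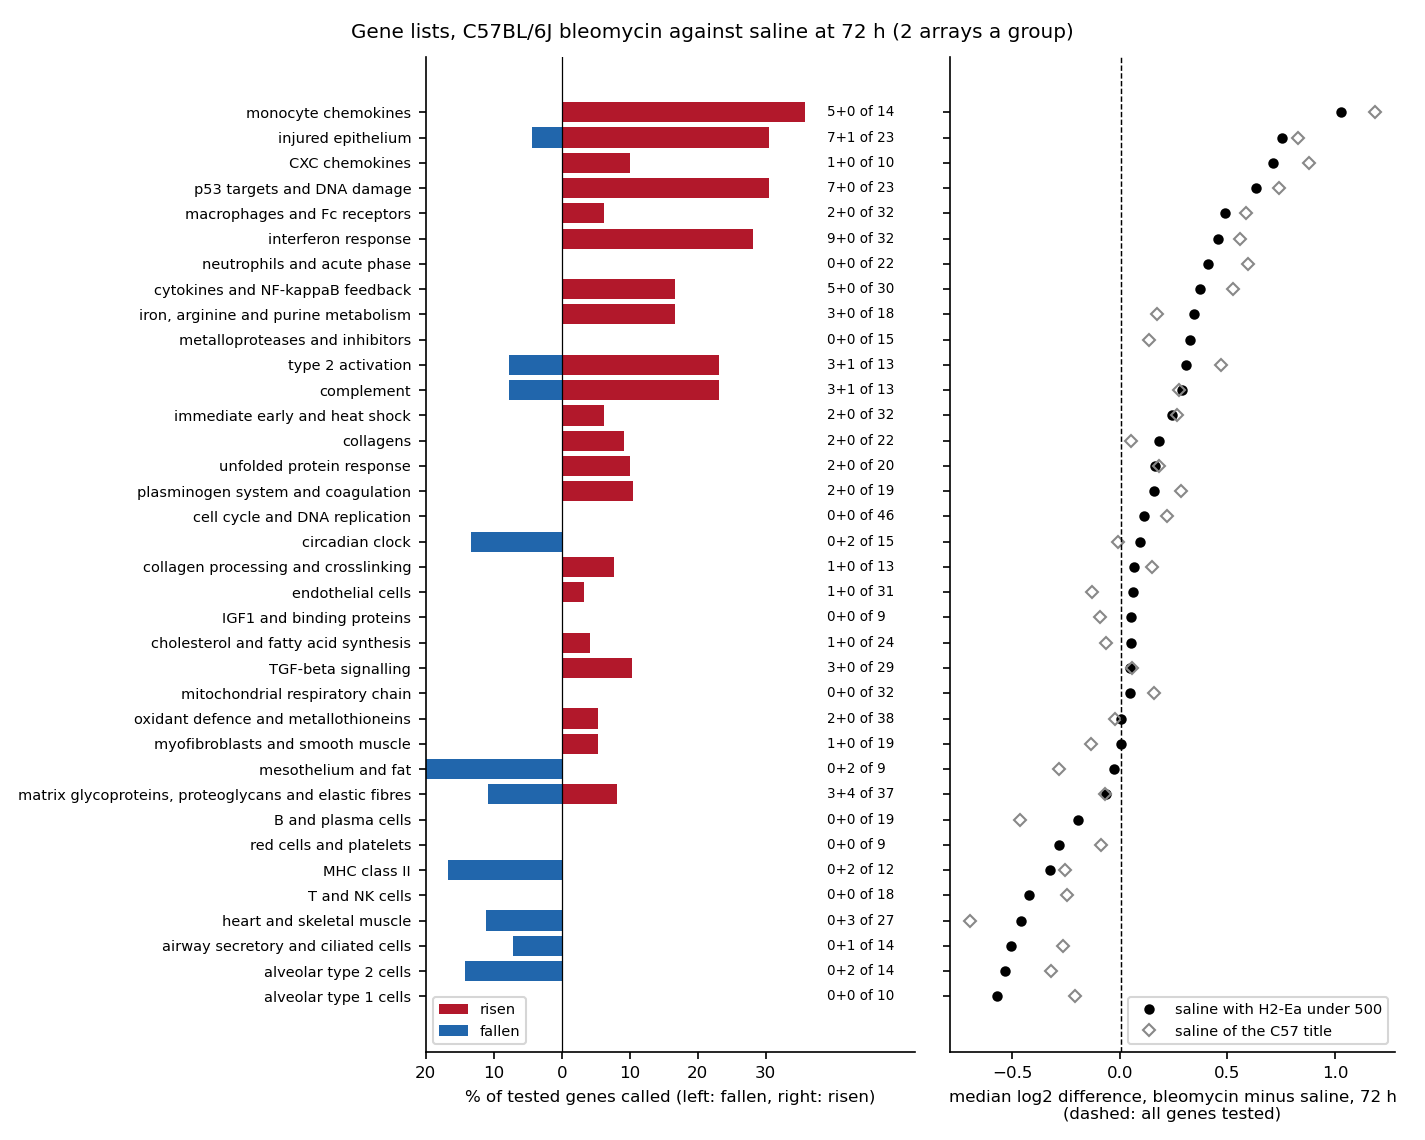
For each of 36 gene lists, the percent of tested genes that rose (red) or fell (blue), with the counts as risen + fallen of tested (left), and the median log2 difference against the control arrays (black points) and against the arrays titled C57 saline 72 h (grey diamonds), with all genes at the dashed line (right). Monocyte chemokines, with 5 of 14 risen, and injured epithelium, with 7 of 23, lie at the top with medians of 1.03 and 0.753; alveolar type 1 cells, with 0 of 10 called, lie at the bottom at -0.571.

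Genes of the type 2 list, which includes markers of alternative macrophage activation, were called in both directions. Arg1, the arginase that marks macrophages activated by interleukin 4 and 13, read 1168 and 1619 after bleomycin, 168 and 162 after saline and 80.7 and 47.2 on the arrays titled C57 saline 72 h. It rose by 2.52 (SE 0.40, limma adjusted p = 0.00255), and by 3.24 by title. Il4ra, the receptor chain for both cytokines, read 2574 and 2368 against 1126 and 1001 and rose by 1.15 (SE 0.22, limma adjusted p = 0.0089), but its difference by title was 0.54 (adjusted p = 0.166) and a dimmer second probe set differed by -0.21 (adjusted p = 0.665). Its call was lost whichever array was left out, and that of Arg1 held whichever was left out. Within the type 2 list 3 of 13 genes rose (Arg1, Il4ra and Ccl17) and Tff2, a mucosal repair peptide, fell. Tff2 read 106 and 224 against 1130 and 1150 (log2 difference -2.30, SE 0.45, limma adjusted p = 0.00977), with 328 and 216 on the arrays titled C57 saline 72 h and -0.52 by title, and was lost whichever array was left out except bleomycin b. Chil3, a chitinase-like protein of alveolar macrophages, differed by 0.41 (adjusted p = 0.502) and by 2.47 by title (adjusted p = 1.42e-05).

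In the macrophage and Fc receptor list 2 of 32 genes rose, with a median of 0.487: Fcgr1 (1.12), the high-affinity IgG receptor, and Lgals3. Msr1 (1.25, adjusted p = 0.148) and Cd68 (0.78, adjusted p = 0.151) did not pass the test. The call of Fcgr1 was lost whichever array was left out, while its second probe set rose by 1.53. In the complement list 3 of 13 rose and 1 fell. C1qa (1.26) and C1qb (1.27), subunits of the initiating complex that macrophages make, and C3ar1 (1.40), the receptor for C3a, rose. Hc, which encodes complement C5, read 1159 and 1362 after bleomycin, 5703 and 5653 after saline and 4043 and 3081 on the arrays titled C57 saline 72 h. Its log2 difference was -2.10 (SE 0.51, limma adjusted p = 0.0359), and -1.43 by title (adjusted p = 0.112). The 4 complement calls were lost whichever array was left out, except that of C1qa without control b. A second probe set of C1qb differed by 0.20.

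Cytokine signalling genes rose in 5 of 30 cases, with a median of 0.374, and 0 fell. Bcl3, an unusual IκB protein that works with NF-κB in the nucleus, read 1280 and 680 after bleomycin, 144 and 126 after saline, and 539 and 787 on the saline 14 d arrays. It rose by 2.18 (SE 0.32, limma adjusted p = 0.00136), by 1.23 by title, and differed by 0.47 (adjusted p = 0.428) from saline 14 d. Osmr (1.15), the oncostatin M receptor, Il18bp (1.18), a decoy for interleukin 18, and Socs3 (1.32, and 2.27 on a second probe set), an inhibitor of cytokine receptors, also rose with Il4ra. Bcl3 stayed called whichever array was left out and the other 4 were lost whichever was left out. Il1b (0.76, adjusted p = 0.67) and Il6 (0.73, adjusted p = 0.569), chosen after their values were seen, did not pass the test.

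No gene of the neutrophil and acute phase list passed the test against the control arrays, while 1 of 22 rose by title and 2 against saline 14 d. Saa3, an acute phase protein made in lung, read 7167 and 6910 after bleomycin and 372 and 224 after saline, a difference of 4.22 (SE 1.23, limma adjusted p = 0.0791), of 3.70 by title (adjusted p = 0.0832) and of 4.36 against saline 14 d (adjusted p = 0.0419). Lcn2, an iron-trapping protein of neutrophils and epithelium, read 7104 and 7465 against 1122 and 1304, a difference of 2.50 (SE 0.87, limma adjusted p = 0.151) and of 3.23 by title (adjusted p = 0.033), and its second probe set differed by 0.01. Neither gene's groups overlapped. The C57BL/6J saline 24 h arrays, which enter the shared estimate of spread, read 360 and 25728 for Saa3. With those arrays left out of the fit, a setting added after seeing the data, the adjusted p was 0.00552 for Saa3 and 0.0339 for Lcn2. The list median was 0.410 over 22 genes. Mmp8, the neutrophil collagenase, differed by 2.11 (adjusted p = 0.0685).

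Lymphocyte lists had medians below that of all genes and no called member. The 18 T and NK cell genes had a median of -0.423 and the 19 B and plasma cell genes one of -0.195, beside the lower thymus and lymph node marker sum on the bleomycin arrays. Of 12 MHC class II genes 0 rose and 2 fell: H2-DMa, which loads peptide, read 1772 and 2270 against 3642 and 3345 (log2 difference -0.77, adjusted p = 0.0219), and H2-Ob, which restrains loading, fell with it (-0.96). By title these differences were -0.16 and -0.39, with adjusted p of 0.659 and 0.393. The call of H2-Ob was lost whichever array was left out, and that of H2-DMa whichever array was left out except bleomycin b.

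Matrix genes moved in both directions, without a general rise of collagens. Of 22 collagen genes 2 rose, with a median of 0.182: Col5a2 (1.14), which seeds fibrils, read 4268 and 4614 against 2211 and 1745, and Col8a1 (0.87), a short-chain collagen, rose with it. Col8a1 differed by 0.60 by title and by 0.27 from saline 14 d, with limma adjusted p of 0.0473 and 0.392. Col1a1 read 6569 and 7540 after bleomycin and 5243 and 5276 after saline, a difference of 0.41 (SE 0.28, adjusted p = 0.539). Col3a1 read 4624 and 5091 against 4244 and 3841, a difference of 0.26 (SE 0.25, adjusted p = 0.689), but 1.13 by title (adjusted p = 0.0104). Lox, the enzyme that crosslinks collagen and elastin, read 1914 and 2255 against 715 and 516 and rose by 1.63 (SE 0.33, limma adjusted p = 0.0119; 1.75 by title), 1 of 13 genes of collagen processing. Col5a2 and Lox lost their calls whichever array was left out, and Col8a1 whichever array was left out except control a.

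Tnc, an injury-induced adhesion-modulating protein, read 1008 and 612 after bleomycin, 210 and 188 after saline, and 125 and 144 on the arrays titled C57 saline 72 h. It rose by 1.60 (SE 0.28, limma adjusted p = 0.00512; 1.96 by title) and lost its call without bleomycin a, and a dimmer second probe set differed by 0.92 (adjusted p = 0.172). Tgfbi (1.48), a TGF-beta-induced adhesion protein, and Ltbp2 (0.73), which binds fibrillin, also rose. Eln, which encodes tropoelastin, read 1480 and 1067 after bleomycin, 9105 and 6398 after saline, and 6882 and 6041 on the arrays titled C57 saline 72 h. Its log2 difference was -2.52 (SE 0.44, limma adjusted p = 0.00475), and -2.28 by title, and its call was lost without bleomycin b or control a. A dimmer second Eln probe set went the other way, by 1.45 (adjusted p = 0.0373), so the direction of elastin differed between probe sets.

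In the list of matrix glycoproteins, proteoglycans and elastic fibres 3 of 37 genes rose and 4 fell, with a median of -0.063. Matn4 (-0.89), a matrilin, Thbs3 (-0.87), a thrombospondin, and the collagen-binding proteoglycan Dcn (-0.59) fell, as did Eln on its brightest probe set. Dcn differed by -0.20 by title and by -0.12 from saline 14 d, with limma adjusted p of 0.506 and 0.684. Matn4 stayed called whichever array was left out, Dcn and Ltbp2 lost the call whichever was left out, Thbs3 and Tgfbi whichever array was left out except control b. Of 19 myofibroblast and smooth muscle genes Tnc alone was called, and Acta2, the myofibroblast actin, read 4983 and 2722 against 3536 and 4528, a difference of -0.12 (SE 0.28, adjusted p = 0.904). Fn1 differed by -0.12 (adjusted p = 0.923). Timp1, an inhibitor of metalloproteases, read 6046 and 4796 against 2116 and 2191, but its difference of 1.29 (SE 0.44) had an adjusted p of 0.143. Of 15 metalloproteases and inhibitors 0 were called on the brightest probe set of each gene, while 2 rose by title and 2 rose and 1 fell against saline 14 d. Mmp12, the macrophage elastase, differed by 0.82 (adjusted p = 0.339) on that probe set and rose by 1.47 (adjusted p = 0.0442) on a second.

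TGF-beta signalling drives scarring through SMAD2 and SMAD3, and 3 of the 29 genes of this list rose, with a median of 0.050. Ccn2, a matricellular target of the pathway, read 4977 and 4656 after bleomycin and 1918 and 2542 after saline and rose by 1.09 (SE 0.19, limma adjusted p = 0.00451; 0.71 by title). Fst (1.70), the activin trap follistatin, and Smad2 (0.72) also rose. Smad2 differed by 0.40 by title and by 0.295 from saline 14 d, with limma adjusted p of 0.226 and 0.376. Tgfb1 read 667 and 511 against 648 and 473, a difference of 0.07 (SE 0.32, adjusted p = 0.954), and -1.46 (adjusted p = 0.0119) against the saline 14 d arrays, where it read 2090 and 1485. The call of Ccn2 was lost without bleomycin a or control a, that of Fst whichever array was left out except bleomycin b, and that of Smad2 whichever was left out. In the plasminogen and coagulation list Plaur and Procr, the protein C receptor, rose, 2 of 19. Procr rose by 0.95 but was -0.19 by title, and was lost whichever array was left out except bleomycin b.

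Among markers of lung epithelium 3 genes fell. Slc34a2, the phosphate transporter of alveolar type 2 cells, read 5756 and 5862 after bleomycin, 9418 and 12879 after saline, and 8659 and 7861 on the arrays titled C57 saline 72 h. Its log2 difference was -0.91 (SE 0.20, limma adjusted p = 0.021), and -0.50 by title (adjusted p = 0.165). Lpcat1, which makes surfactant lipid, fell too (-0.74). It differed by -0.46 by title (limma adjusted p = 0.136) and by -1.04 from saline 14 d (limma adjusted p = 0.00176). Thus 2 of 14 type 2 cell genes fell, with a list median of -0.535. The median was -0.317 by title and -0.062 against saline 14 d. Among 14 airway genes Chad (-1.15), a leucine-rich matrix protein, fell. It differed by -0.77 by title (limma adjusted p = 0.123) and by -1.17 from saline 14 d (limma adjusted p = 0.0207). The median of the airway list was -0.506. The airway median was -0.265 by title, where 2 genes rose and 1 fell, and -0.049 against saline 14 d, where 2 fell. The 10 alveolar type 1 genes, with a median of -0.571, had no called member, and their median was -0.206 by title, where 1 fell, and 0.022 against saline 14 d, where 2 fell. The lung marker sums given above move with these lists, and their part was not tested. Calls of Slc34a2 and Lpcat1 were lost whichever array was left out except control a, and that of Chad whichever was left out.

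Secretory and metabolic genes were among the 15 that fell most. Bpifb1, an antibacterial protein of airway secretions, read 724 and 788 after bleomycin and 3612 and 3736 after saline, but 571 and 824 on the arrays titled C57 saline 72 h. Its log2 difference was -2.15 (SE 0.34, limma adjusted p = 0.00215), 0.12 by title and -1.38 against saline 14 d (adjusted p = 0.0208). Cyp1a1, a xenobiotic-metabolising cytochrome of lung endothelium and epithelium, read 128 and 194 against 776 and 666, with 583 and 599 on the arrays titled C57 saline 72 h. It fell by 1.69 (log2 difference -1.69, SE 0.25, limma adjusted p = 0.00149; -1.45 by title). Both stayed called whichever array was left out.

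Rbfox2, a splicing factor, differed widely between the saline pairs. It read 17.1 and 4.84 after bleomycin and 1126 and 568 on the control arrays, but 16.9 and 167 on the arrays titled C57 saline 72 h and 54.0 and 39.9 on the saline 14 d arrays. The log2 difference was -3.12 (SE 0.62, limma adjusted p = 0.01), -0.71 by title (adjusted p = 0.571) and -0.43 against saline 14 d (adjusted p = 0.737). Its call was lost without bleomycin a, bleomycin b or control a. Chrne, a subunit of the muscle acetylcholine receptor, and Grb7, a receptor adaptor, likewise fell (-2.25 and -1.60) but differed by -0.34 and -0.61 from saline 14 d, with adjusted p of 0.773 and 0.337, and lost their calls whichever array was left out. A dimmer second Chrne probe set differed by 0.41 (adjusted p = 0.51). Another Rbfox2 probe set, with a mean intensity of 78.3, was too dim to be tested. The names of the brightest probe sets of Rbfox2, Chrne and Sprr1b end in _r_at, and the part of probe design in these falls was not tested.

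The remaining genes among the 15 that fell most were Ackr4 (-1.95), a receptor that removes chemokines, Slc4a5 (-1.93), a bicarbonate transporter, Car3 (-1.69), a carbonic anhydrase of fat and muscle, Pon1 (-1.58), an esterase carried on lipoproteins, Ckmt2 (-1.42), the mitochondrial creatine kinase of striated muscle, and the clock output gene Dbp (-2.06). Ackr4 and Slc4a5 were lost without bleomycin a, Pon1 whichever array was left out, and Ckmt2 whichever was left out except bleomycin a, while Car3 stayed called throughout. The remaining genes that rose most were Kng1 (2.15), the kininogen from which bradykinin is cut, Fkbp5 (1.91), a chaperone partner of the glucocorticoid receptor, Glipr2 (1.81) and the kinase gene Map3k6 (1.79). Kng1 was lost without control a, Fkbp5 whichever array was left out, and Glipr2 and Map3k6 whichever array was left out except control b. Without control a the difference of Glipr2 was 1.11. By title Fkbp5 differed by 1.10 (adjusted p = 0.144), and against saline 14 d Glipr2 and Map3k6 differed by 0.24 and 0.43 (adjusted p = 0.798 and 0.624).

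**Figure D4:**
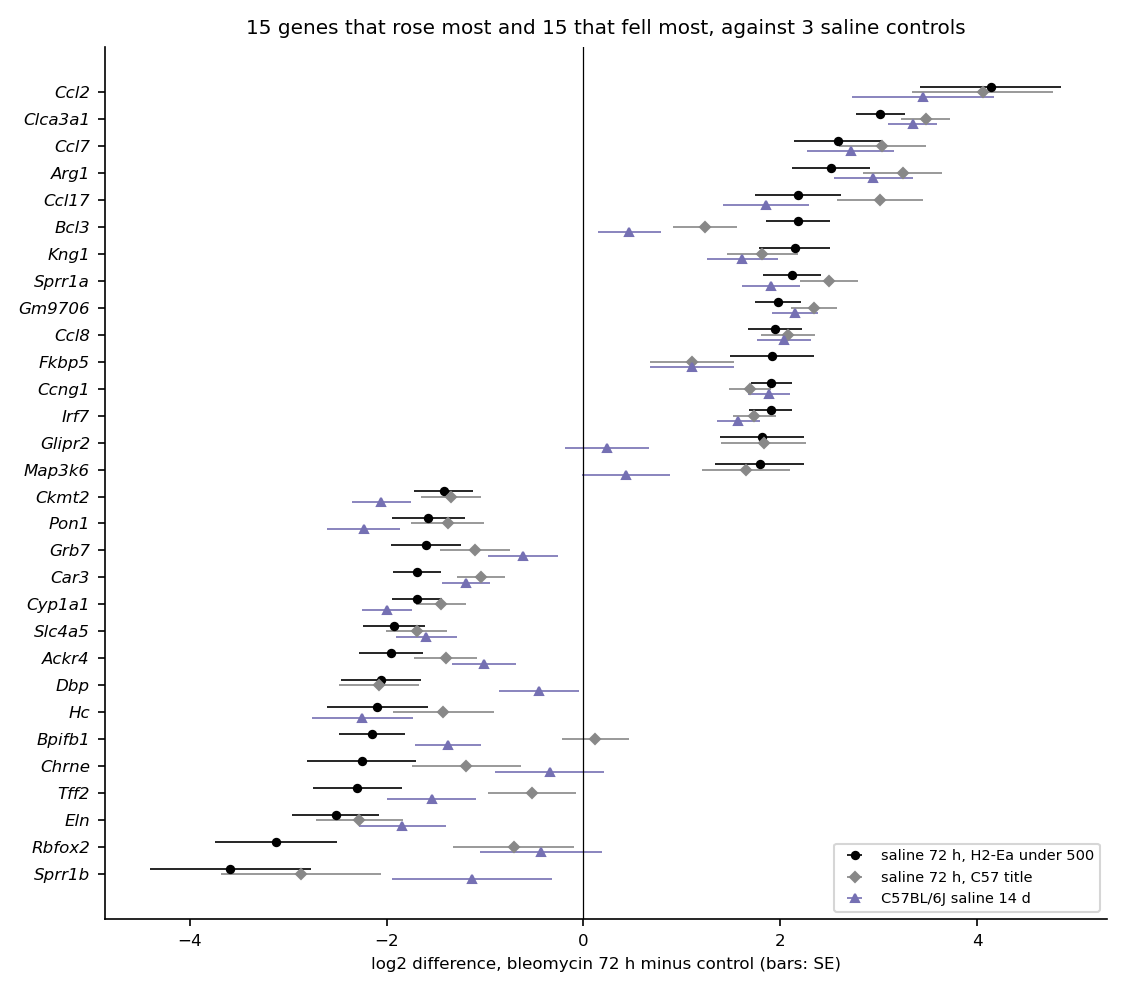
Log2 difference, with its standard error as a bar, of the genes with the largest called changes, 15 in each direction, against the saline 72 h arrays with H2-Ea under 500 (black circles), the arrays titled C57 saline 72 h (grey diamonds) and the C57BL/6J saline 14 d arrays (violet triangles); the bleomycin arrays are the same in all. Ccng1 lies at 1.91, 1.69 and 1.88, while Bpifb1 lies at -2.15, 0.12 and -1.38 and Rbfox2 at -3.12, -0.71 and -0.43.

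Muscle and fat genes fell in small numbers beside the lower marker sums of those tissues. Of 27 heart and skeletal muscle genes 3 fell, with a median of -0.458: the cardiac myosins Myh6 (-0.83) and Myh7 (-1.07) and Ckmt2. Myh6 read 999 and 813 after bleomycin, 1638 and 1723 after saline and 2634 and 2823 on the arrays titled C57 saline 72 h. Myh7 is also 1 of the 34 strain genes and is given without weight on its test. By title 9 of the 27 fell, but the arrays titled C57 saline 72 h lay at the BALB/c end of the strain genes. Mean Myh6 was 2435.6 and 2143.5 on the BALB/c saline 24 h and 14 d arrays, and 1215.4 and 1892.8 on the C57BL/6J ones. The part of strain in the count by title was not tested. Against the C57BL/6J saline 14 d arrays 11 of the 27 fell. Of 9 mesothelium and fat genes Car3 and Adipoq, the adipocyte hormone, fell. Adipoq read 161 and 157 against 645 and 516, but 168 and 233 on the arrays titled C57 saline 72 h, so its difference was -1.42 (adjusted p = 0.00789) and -0.21 by title. Myh6 was lost whichever array was left out, Myh7 whichever array was left out except bleomycin a, and Adipoq whichever array was left out except control b.

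Stress and metabolic lists had few called genes. Of 15 clock genes 2 fell, Dbp and Nr1d1 (-1.20), a repressor in the clock. Dbp read 149 and 110 after bleomycin and 624 and 1092 after saline, but 390 and 97.2 on the saline 14 d arrays, which overlap the bleomycin values. The hour at which lungs were taken is not given in the labels used here. The transcription factors Egr2 (1.20) and Atf3 (1.30) rose among 32 immediate early and heat shock genes, and Atf3 and Atf4 (0.77) among 20 of the unfolded protein response. Atf4 differed by 0.67 by title and by 0.10 from saline 14 d, with limma adjusted p of 0.0523 and 0.817. Gclc, which limits glutathione synthesis, read 3256 and 3050 against 1094 and 1389 and rose by 1.29 (SE 0.18, limma adjusted p = 0.0011; 1.66 by title), with Txnrd1 (0.74), 2 of 38 oxidant defence genes. Txnrd1 differed by 0.53 by title and by 0.56 from saline 14 d, with limma adjusted p of 0.0756 and 0.0586. In iron, arginine and purine metabolism 3 of 18 rose: Arg1, Gatm (1.10), the first enzyme of creatine synthesis, and Pnp (0.66), a purine phosphorylase. Gatm was -0.53 by title. Among the 24 cholesterol and fatty acid genes Fdps (0.83) rose but differed by -0.08 from saline 14 d, and among 31 endothelial genes Lyve1 (0.95), a hyaluronan receptor of lymphatic vessels, rose. Gclc stayed called whichever array was left out, Nr1d1, Atf4, Gatm, Pnp, Fdps and Lyve1 were lost whichever was left out, Dbp whichever array was left out except control a, Txnrd1 whichever array was left out except control a, Egr2 without bleomycin a or control a, and Atf3 whichever array was left out except bleomycin b.

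The lists with 0 called genes in limma, besides those named, were cell cycle and DNA replication (46 genes, median 0.113), the mitochondrial respiratory chain (32 genes, 0.047), red cells and platelets (9 genes, -0.281) and IGF1 with its binding proteins (9 genes, 0.053). In all 9 of the 36 lists had 0 called genes, and over all 8710 probe sets 1355 had an unadjusted p under 0.05. Hba-a1, the alpha globin, read 90.9 and 520 after bleomycin but 642 and 12838 on the control arrays, a difference of -3.20 with an adjusted p of 0.131.

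Assigning the saline arrays by H2-Ea changed what the comparison showed for strain genes. Over the 34 strain genes the median absolute difference between bleomycin and saline was 0.227 with the control arrays and 1.61 by title. For H2-Ea itself the difference was -0.23 and, by title, -4.97. These genes chose or follow the assignment and are described without a test.

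Several interferon genes and Ccng1 had a larger effect at 72 h than at 14 d. The 72 h effect and the effect of bleomycin at 14 d in C57BL/6J were compared by an interaction contrast, and 22 of 8710 probe sets (0.253%) were called, 18 (0.207%) higher and 4 (0.0459%) lower at 72 h. Among the 6464 genes 15 (0.232%) were higher and 3 (0.0464%) lower. Of the 15 genes 7 belonged to the interferon list, which held 32 of the 6464 genes tested. Among these 7, Irf9 and Ifi35 were not called at 72 h. Their 72 h effects were 0.31 and 0.51 (limma adjusted p = 0.393 and 0.0607), and their 14 d effects -0.92 and -0.57. Usp18 read 2176 and 1842 at 72 h and 415 and 557 at 14 d, where its saline arrays read 625 and 702. Its effect was 1.49 at 72 h and -0.40 at 14 d, a difference of 1.88 (SE 0.24, limma adjusted p = 0.00399), the only one of the 9 genes with the largest differences called without each array of the contrast and in every other setting. Ifit1 had effects of 1.78 and -0.02 and Ccng1 of 1.91 and 0.30.

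In the other direction Fbln2, an elastic fibre protein, read 607 and 438 at 72 h and 567 and 510 on the control arrays, an effect of -0.05. At 14 d it read 2591 and 1740 against 429 and 536, an effect of 1.95 and a difference of -2.002 (SE 0.28, limma adjusted p = 0.00399). Dcn fell at 72 h against the control arrays (-0.59) and was higher at 14 d (0.51), a difference of -1.10 (SE 0.21, limma adjusted p = 0.0303). Its 72 h difference was -0.20 by title and -0.12 against saline 14 d, with limma adjusted p of 0.506 and 0.684. The count of 22 probe sets was 3 without bleomycin 72 h a, 5 without control b, 9 without bleomycin 14 d a and 321 without bleomycin 14 d b, so its size rests on single arrays. Arg1 and Tnc, with 14 d effects of 4.30 and 2.46, did not differ between the times beyond the test (adjusted p = 0.19 and 0.389).

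**Figure D5:**
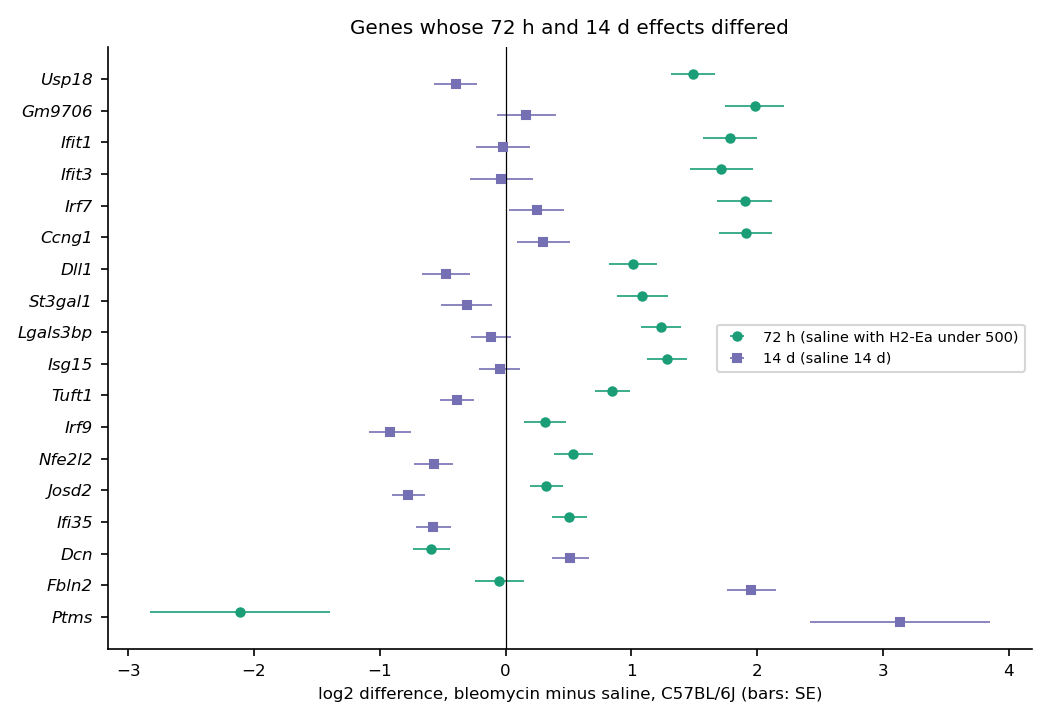
Effects of bleomycin (log2 difference from saline, bars show the standard error) in C57BL/6J at 72 h (green circles) and at 14 d (violet squares), for the 18 genes whose effects, on the brightest probe set of each, differed between the times at an adjusted p under 0.05. Usp18 lies at 1.49 and -0.40, and Fbln2 at -0.05 and 1.95.

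No probe set differed between the 72 h and 24 h effects in C57BL/6J (0 of 8710 in limma, 501 at an unadjusted p under 0.05), and 1 was called with 3 times the offset. The C57BL/6J saline 24 h arrays behind this contrast stood apart, with Sftpc at 78641 and 43230 and Hba-a1 at 63583 and 37045, against 365 and 478 and 90.9 and 520 on the bleomycin 72 h arrays. The titles of these saline arrays end in s1, and those of all other arrays end in s2 or s2a. The part of these saline arrays in this result was not tested. Arg1 had an effect of -0.01 at 24 h and 2.52 at 72 h, and the difference of 2.53 had an adjusted p of 0.374. Nor did the 72 h effect differ between strains for any probe set (0 of 8710 in limma, 561 at an unadjusted p under 0.05; 2 with array weights), with BALB/c bleomycin set against the arrays titled C57 saline 72 h. The smallest strain p among the named genes was that of Clca3a1, which had an effect of 3.02 in C57BL/6J and 0.93 in BALB/c, a difference of 2.09 (SE 0.36, adjusted p = 0.15). On its brightest probe set Eln had effects of -2.52 and -0.001, a difference of -2.52 (SE 0.63, adjusted p = 0.453). Arg1 had effects of 2.52 and 0.25, a difference of 2.27 (SE 0.57, adjusted p = 0.453). A p that misses the threshold does not show that the strains responded alike.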

How the data were processed

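Lung RNA was measured on 24 Affymetrix murine arrays, 2 for each of 12 groups, grouped by title; the labels give no animal numbers. The table deposited by the authors holds an intensity on a linear scale for each probe set; how probes were summarised is not stated in the labels or file headers used here. Of 12488 probe sets, 66 controls were left out; of the other 12422, 10833 had one gene name, 396 several and 1193 none, and 10817 of the named ones were found in a RefSeq gene table used for names. Trimmed means of the arrays were nearly equal, so no further normalization was done.

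The deposited intensities were converted to log2(intensity + 92), and the 8710 probe sets above 225.7 (the 40th percentile) on at least 2 arrays were tested in limma 3.58.1 (R 4.3.3), with a mean for each of 12 groups, 12 residual degrees of freedom, a variance trend, two-sided tests and Benjamini-Hochberg adjustment over all 8710; a call is an adjusted p under 0.05. Genes were read from their brightest one-name probe set. The control was the pair of saline 72 h arrays with H2-Ea under 500. The members and the 36 gene lists were chosen with earlier results of these data known. Named genes are the 15 called genes that changed most in each direction, up to 4 members of each list with the smallest p, 9 fixed genes (Blmh, Tgfb1, Timp1, Col1a1, Col3a1, Fn1, Acta2, Cdkn1a, H2-Ea) and the 6 called genes that differed most in each direction between effects; Perp, Phlda3, Ei24, Rsad2, Mx1, Ifih1, Ccl12, Socs3, Krt18, Thbs3, Ltbp2, Il6, Il1b, Chil3 and the lung markers were named after their values were seen.

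The array letters were checked as pairs: over 66 pairs of groups the correlation of a minus b ran from -0.285 to 0.309, with 14 over 0.1, so they were not treated as pairing samples. The number of arrays limits precision. In simulated data for this comparison, tested on 8710 probe sets, 5.97%, 71.6% and 97.0% of log2 changes of 0.5, 1 and 2 were called, with 3 false calls. The simulated noise was independent for each probe set and array. Shifts that many probe sets share on an array were not simulated, so these figures do not cover them. Alternatives were other normalization, offsets, filters, variance models, controls, array weights and leaving out arrays.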

Additional observations from a re-analysis of the deposited data

Results flagged for a closer look

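The effect of bleomycin in C57BL/6J differed between 72 h and 14 d for 18 genes, each on its brightest probe set, by a direct test of that difference in limma, with Benjamini-Hochberg adjusted p; the 6 with the largest differences among those higher at 72 h and the 3 lower are given here. Higher at 72 h were Usp18 (1.884, SE 0.244, adjusted p = 0.00399), Gm9706 (1.815, adjusted p = 0.0249), Ifit1 (1.804, adjusted p = 0.0142), Ifit3 (1.748, adjusted p = 0.0455), Irf7 (1.652, adjusted p = 0.028) and Ccng1 (1.607, adjusted p = 0.028). Lower at 72 h were Ptms (-5.248, adjusted p = 0.0321), Fbln2 (-2.002, adjusted p = 0.00399) and Dcn (-1.105, adjusted p = 0.0303). Ptms, which encodes parathymosin, read 8501 and 11864 on the control arrays, 2381 and 2714 on the arrays titled C57 saline 72 h, and 204 and 328 on the saline 14 d arrays. Its 72 h effect of -2.11 was not called (limma adjusted p = 0.138), and its 14 d effect was 3.13. Against saline 14 d the bleomycin 72 h arrays were higher for Ptms, by 2.73 (limma adjusted p = 0.03). The name of the Ptms probe set also ends in _r_at, and the part of probe design was not tested.

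Without bleomycin 72 h a the adjusted p was 0.0832 for Ifit1, 0.119 for Ccng1 and Dcn, 0.107 for Gm9706, 0.19 for Ifit3, 0.0832 for Irf7 and 0.0593 for Ptms. Fbln2 was called without each array of the contrast but had an adjusted p of 0.105 with C57BL/6J arrays alone.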

How the results depend on the processing

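The count of 226 probe sets was 532 with array weights, 116 with C57BL/6J arrays alone, 585 against saline 14 d, 366 against saline 72 h and 14 d together, 576 against the arrays titled C57 saline 72 h and, in a setting added after seeing the data, 514 against C57BL/6J saline of 3 times; without 1 array it ran from 52 to 91. The count of 576 by title was 942 with array weights and 222 to 341 without 1 array. The 0 probe sets that differed between strains became 1 with 3 times the offset, 1 without the filter, 2 with array weights and 0 to 1 without 1 array. The 22 that differed between 72 h and 14 d became 2 with C57BL/6J arrays alone and 3 to 321 without 1 array, and the 0 between 72 h and 24 h became 1 with 3 times the offset and 0 to 1 without 1 array. With the array letter as a replicate block the counts were 215, 532 by title, 0, 20 and 0. The cause of these moves was not tested, beyond fewer arrays where arrays were left out.

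Of the 94 called genes named, 4 changed sign under a setting: Bpifb1 (0.12), Procr (-0.19) and Gatm (-0.53) by title, and Fdps (-0.081) against saline 14 d. Of 94 named genes called, 21 were called without each of the 4 arrays; 66 were lost without bleomycin a, 56 without bleomycin b, 61 without control a and 49 without control b. With 2 arrays a group, log2 changes of 0.5 are seldom called at this precision.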
